A study of Mus musculus with 40 samples.

Results

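Messenger RNA was compared between 5 male fetal livers of the group WDF and 5 male fetal livers of the group CDF, 10 of the 40 libraries in the series. The 10 libraries are all those labelled male at the higher folic acid dose, and no measured value was used to choose them. Fetuses of the C57BL/6 strain were taken on gestational day 18.5, shortly before birth. The mothers of the WDF fetuses had eaten a western diet with 45% of its calories as fat, and those of the CDF fetuses a control diet with 10%. Both diets held 10 mg/kg folic acid, so the higher folic acid dose is common to all 10 livers, and both were fed for 13 weeks before breeding and through pregnancy. The series also holds these fat levels at 2 mg/kg folic acid (WD and CD), and both sexes, with 5 libraries in each of 8 groups. Its design text presents the high-fat diet as a model of gestational diabetes. The labels name no mother or litter, so fetuses of 1 group may be littermates and p-values measure only the spread between these samples.

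The liver makes cholesterol and fatty acids from acetyl-CoA. Transcription factors of the SREBP family switch on the enzymes of both routes, SREBP-2 (Srebf2) mainly those of cholesterol and SREBP-1c (Srebf1) mainly those of fatty acids, and they are held back when sterols in the cell are plentiful. Late in gestation the liver is also a blood-forming organ, in which red cell precursors, megakaryocytes and neutrophil precursors lie between the hepatocytes.

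Each of the 10 livers had a total of between 15 and 18.4 times 1000000 normalized read counts, and its depth, estimated from the smallest steps between low values, was between 11.3 and 18.7 times 1000000 reads. Albumin (Alb, 919114 to 1469912) and alpha-fetoprotein (Afp, 426342 to 674783) were abundant in all 10, as the liver label requires. Ddx3y, a Y-linked gene, stood at 1121 to 1527. Xist, expressed from the inactive X chromosome, was at 10.7, 7.65 and 10.7 in WDF replicates 3, 4 and 5. It was at 1.26 or less in the other livers, and the source of these reads was not tested. WDF replicate 2 also held lung epithelium transcripts: the 15 lung markers summed to 10780 there and to 1079 to 1234 in the other 9 livers. Its surfactant protein C gene, Sftpc, stood at 5978, against 133 in WDF replicate 4 and 6.01 or less in the other 8, and Nkx2-1, the lung transcription factor, at 96, 2.49 and 0. The part of this RNA in the results was not tested, and only some of the results that follow are also given without this library. Library totals did not differ between the groups beyond their spread (exact permutation test, two-sided, p = 0.143), nor did albumin (p = 0.389) or Hba-a1, an alpha-globin gene (p = 0.183). In bulk RNA, fewer cells of a type and less RNA per cell cannot be told apart.

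No single gene passed the threshold when all 20 male libraries set the spread. Of 14783 genes tested with limma, 0% had an adjusted p under 0.05, and the smallest adjusted p was 0.357. At an unadjusted p under 0.05 there were 1240 genes (8.39% of those tested), 629 higher and 611 lower in WDF. The values of all 5 WDF livers lay outside the range of the 5 CDF livers for 312 genes (2.11%), with 151 above it and 161 below. The count past the threshold depended on how the spread was set. It was 13 without replicate 4 of CD, a male library outside this comparison whose median correlation with the other males was 0.925, where the other 19 had 0.955 to 0.971. It was 333 with library weights, which let each library count by how well it fitted, and 2 without CDF replicate 2. At an unadjusted p under 0.05, library weights put 25.3% of all tested genes, and a fit of the 10 compared libraries alone 14.5%. Leaving out 1 compared library moved the number under 0.05 too, higher and lower genes together. Without CDF replicates 1 to 5 in turn it was 1908, 1149, 1212, 742 and 916 genes. Without WDF replicates 1 to 5 in turn it was 1700, 886, 856, 1103 and 974. Each of these fits tested 14724 to 14752 genes. Counts of list members without 1 library are to be read beside these.

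The 13 genes that passed without that CD library, all had the 2 groups apart, 6 lower and 7 higher in WDF. Lower in WDF were Acsl3, which activates long-chain fatty acids, Rdh11, a retinol dehydrogenase, Sqle, the squalene epoxidase of cholesterol synthesis, Abhd5, a co-activator of triglyceride lipase, Maoa, which breaks down monoamines, and Vcp-rs. Higher were C4b, the complement protein, Retnlg, a neutrophil protein, Rarres2, the hormone chemerin, Nfib, a transcription factor, Csta2, a cysteine protease inhibitor, Pbxip1 and Cul9. Their adjusted p-values in that fit ran from 0.0432 to 0.048 (limma), so they passed by little. Vcp-rs is a processed copy of Vcp, Csta2 has near-identical neighbours and C4b a near-identical copy, so their reads may be shared with those genes.

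**Figure D1:**
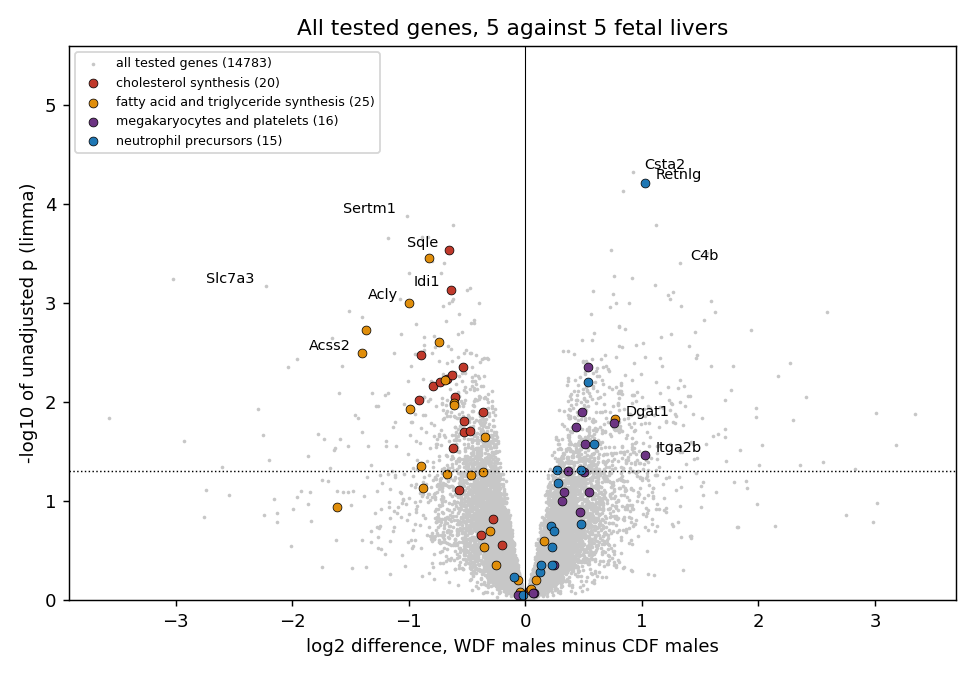
Each point is 1 of 14783 tested genes, with the log2 difference (WDF minus CDF males) on the horizontal axis and -log10 of limma's unadjusted p on the vertical axis, and the dotted line at the level 0.05. Above the line, members of the 2 lipid synthesis lists lie on the left, apart from Dgat1, and members of the megakaryocyte and neutrophil lists lie on the right.

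Genes of cholesterol synthesis were lower in the WDF livers. Of 20 listed enzymes, 19 had a lower mean in WDF (as did 49.5% of all tested genes), 15 of them at an unadjusted p under 0.05 (4.13% of all tested genes were lower at that level), and the median log2 difference was -0.59, against 0.00 over all tested genes. None passed the adjusted threshold with 20 male libraries. In 4 of the 20 (Sqle, Idi1, Hsd17b7 and Hmgcs1) all 5 WDF livers lay below all 5 CDF livers, as did 1.09% of all tested genes. Short stretches upstream of the start sites of 3 of these 4 are shown because members of the list were lower together and sterol factors act near start sites. They are from RefSeq, build GRCm38.p6, and were searched on both strands over the 250 bases before the start for a sterol regulatory element (TCACNCCAC), an E-box (CACGTG) and a CCAAT box (CCAAT). Capitals mark the motif as it reads on the gene's strand, ATTGG being CCAAT on the other strand; Hmgcs1 (chr13:119690179-119690257, plus strand) holds the sterol element, Idi1 (chr13:8885526-8885600, plus strand) 2 CCAAT boxes, and Hsd17b7 (chr1:169969308-169969383, minus strand) an E-box, beside a CCAAT box left in lower case.
Hmgcs1: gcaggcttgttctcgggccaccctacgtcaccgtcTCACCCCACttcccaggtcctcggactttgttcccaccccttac
Idi1: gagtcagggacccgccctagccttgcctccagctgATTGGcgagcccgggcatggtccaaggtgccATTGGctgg
Hsd17b7: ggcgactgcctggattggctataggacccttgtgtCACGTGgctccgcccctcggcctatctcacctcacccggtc

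Promoters were found for 15 of the 20 cholesterol enzymes. Some genes have more than 1 promoter window, and a gene was counted when any of its windows held the motif. A CCAAT box was found for 14 of these 15 genes (93.3%), against 37.5% of 27025 genes with a promoter. An E-box was found for 3 (20%, against 6.86%) and the sterol element for 1 (6.67%, against 1.22%). For fatty acid and triglyceride synthesis promoters were found for 20 of 25 genes, with a CCAAT box for 13 (65%), an E-box for 3 (15%) and the sterol element for 1 (5%). For sterol sensing, uptake and export promoters were found for 13 of 19 genes. A CCAAT box was found for 8 (61.5%), an E-box for 3 (23.1%) and the sterol element for 0. The 27025 genes are more than the 14783 tested, so they include genes that did not reach the filter. Shares among tested genes alone were not counted. These are letter matches, and no binding was measured. The last 3 letters of the sterol element are also the first of the E-box, so 1 stretch can match both.

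Along the route, the first steps had lower means already. Hmgcs1, the cytosolic synthase that makes HMG-CoA, stood at 10866, 10033, 8307, 8927 and 9148 normalized read counts in WDF replicates 1 to 5, and at 14534, 11007, 14003, 15296 and 13699 in CDF replicates 1 to 5. The WDF livers were all below the CDF livers, with the closest pair at 10866 and 11007. The log2 difference was -0.53 (SE 0.17, unadjusted p = 0.00438, adjusted p = 0.492, limma). Idi1, which makes the isoprene unit for the later steps, read 3829, 3028, 2443, 2856 and 2669 in WDF against 5262, 4015, 4323, 4888 and 4399 in CDF. The groups did not overlap, and the means were 2965 ± 530 and 4577 ± 494 (SD, n = 5 each).

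Sqle, the enzyme that commits squalene to sterols, had the smallest p of the list. Its values were 2540, 2286, 1762, 2107 and 1672 in WDF and 3487, 2975, 3440, 3358 and 2947 in CDF, again without overlap. The log2 difference was -0.66 (SE 0.15, unadjusted p = 0.000292, adjusted p = 0.366, limma), and -0.66 with adjusted p = 0.0432 without replicate 4 of CD. Lss, which closes the sterol rings, had means of 2785 ± 876 in WDF and 5104 ± 798 in CDF (SD, n = 5 each). Cyp51, which removes a methyl group from lanosterol, was at 3302 to 4876 in WDF and 3608 to 9333 in CDF, with a log2 difference of -0.67. The later enzymes Nsdhl (-0.80), Hsd17b7 (-0.89), Ebp (-0.63) and Sc5d (-0.73) were lower by similar amounts. Fdft1 (-0.20) and Mvd (-0.57) were lower but had an unadjusted p over 0.05.

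Genes of sterol sensing, uptake and export differed less. The median of the 19 members was -0.32, and 15 had a lower mean in WDF (49.5% of all tested genes did). Of these, 8 had an unadjusted p under 0.05 (4.13% of all tested genes were lower at that level). That count was 2 without CDF replicate 4, 4 without CDF replicate 5, WDF replicate 2 or WDF replicate 3, and 5 without WDF replicate 4 or 5. Over all genes tested, higher and lower together, it was 742 of 14742 without CDF replicate 4. Stard4, a cholesterol carrier of the cytosol, did not overlap between the groups, at 1731 to 2071 in WDF and 2173 to 3204 in CDF. The sterol exporters Abcg5 (-1.14, SE 0.55) and Abcg8 (-0.84, SE 0.38) were also lower, both at low levels of 8.68 to 85.7. The exporter Abcg1 (-0.43) and Soat2, which esterifies cholesterol (-0.32), had unadjusted p-values of 0.0211 and 0.0363 (limma). The regulators had unadjusted p-values over 0.05: Srebf2 at -0.26 (SE 0.15), Insig1, which holds SREBP in the endoplasmic reticulum, at -0.40 (SE 0.26), and Insig2 at -0.15 (SE 0.18).

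Fatty acid and triglyceride synthesis showed the same direction with a wider spread. Of 25 genes 21 had a lower mean in WDF (49.5% of all tested genes did). Of these, 11 had an unadjusted p under 0.05 (4.13% of all tested genes were lower at that level). Another 1, Dgat1, was higher at that level. The median of the list was -0.61. Only Acsl3 and Elovl6 had all 5 WDF livers below all 5 CDF livers. Acly, which makes acetyl-CoA from citrate, was at 3872, 4530, 3042, 3072 and 2522 in WDF and at 9554, 3016, 7552, 8103 and 7417 in CDF. The other CDF livers lay above all WDF livers, and replicate 2 lay within the WDF range. The means were 3408 ± 792 and 7128 ± 2450 (SD, n = 5 each). Its unadjusted p was 0.000993 and its adjusted p 0.371 by limma.

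CDF replicate 2 lay low in most of these genes. Acss2, which makes acetyl-CoA from acetate, read 1164, 1794, 873, 808 and 1305 in WDF and 5712, 824, 3529, 4118 and 3640 in CDF. Me1, the malic enzyme that supplies NADPH, read 266, 382, 279, 197 and 177 in WDF and 1444, 237, 628, 988 and 536 in CDF. Scd1, the desaturase that makes oleate, was at 3953, 5666, 3420, 2850 and 3414 in WDF and at 11193, 1613, 8556, 10248 and 10481 in CDF. In each of the 3 genes the other 4 CDF livers lay above all 5 WDF livers. The log2 differences were -1.40 (SE 0.42) for Acss2, -1.37 (SE 0.38) for Me1 and -0.90 (SE 0.42) for Scd1, with adjusted p-values of 0.489, 0.461 and 0.591 (limma). Thrsp, a lipogenic gene of low level, was at 2.7 in CDF replicate 2 and at 71 to 267 in the other CDF livers, against 7.42 to 106 in WDF.

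Without CDF replicate 2, 14 of the 20 cholesterol enzymes and 16 of the 25 fatty acid genes had all 5 WDF livers below the 4 remaining CDF livers, as did 324 of the 14743 genes then tested. The medians were then -0.72 and -0.75, 18 fatty acid genes were lower at an unadjusted p under 0.05 in place of 11, and Fads2, the delta-6 desaturase (log2 difference -1.45), and Acly (-1.28) passed at an adjusted p of 0.0364 (limma). Leaving out any other single library left medians of -0.67 to -0.47 for cholesterol synthesis and -0.64 to -0.50 for fatty acid synthesis. Nothing in the labels sets CDF replicate 2 apart, and its sum of the 15 lung markers was 1206. It was singled out here after its low values in these genes were seen. Leaving it out was therefore bound to widen these differences, and the counts without it are description only. Counts of members of these 2 lists without another single library are not given here.

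**Figure D2:**
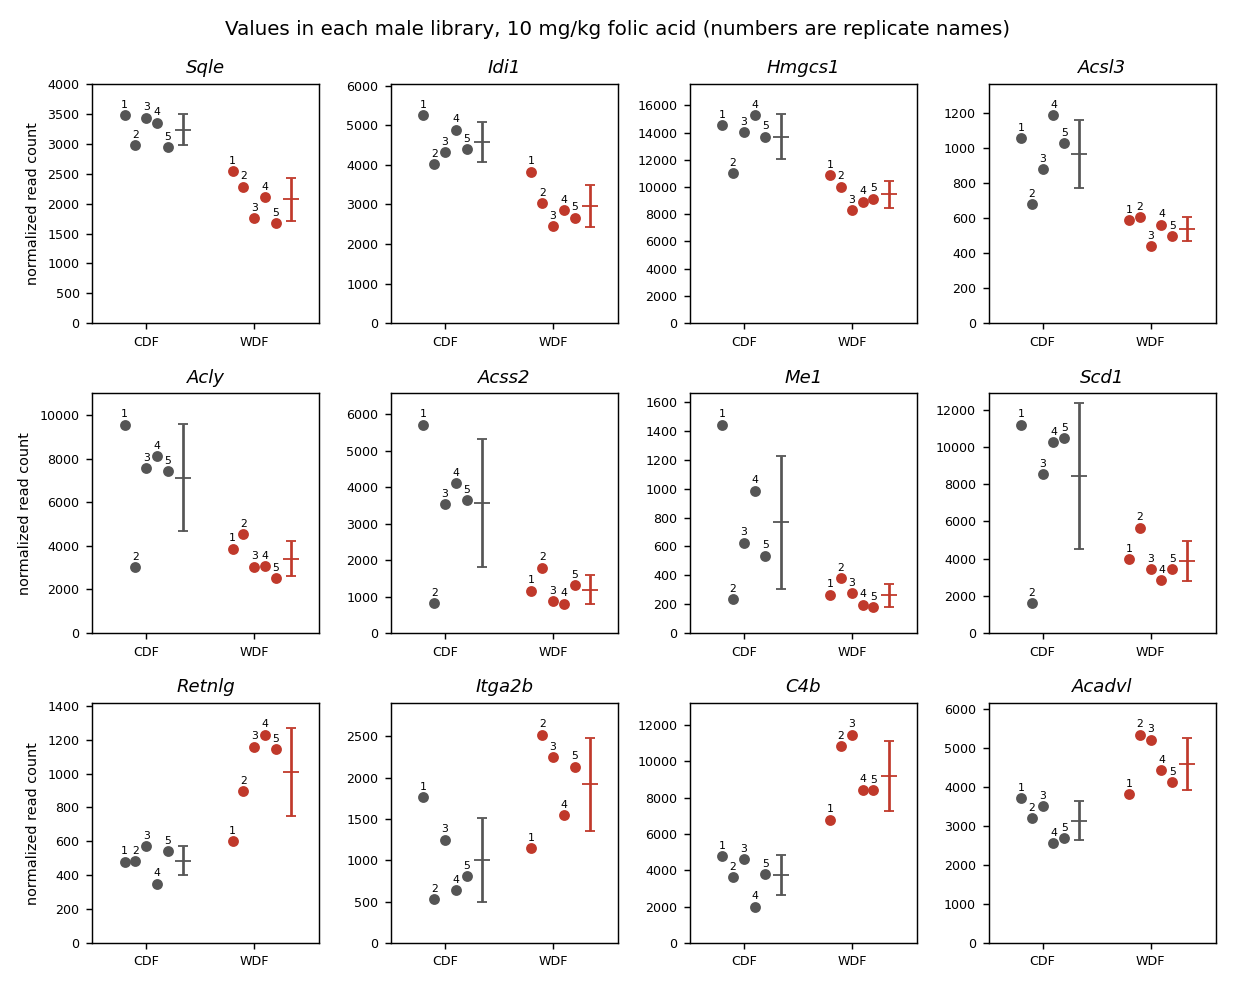
Each point is 1 library, in normalized read counts on a linear axis from 0, with its replicate number above it; the bars are the mean and SD of 5. In Acly, Acss2 and Me1 the CDF point numbered 2 lies with the WDF points and in Scd1 it lies below them, while Sqle, Idi1, Hmgcs1 and Acsl3 do not overlap between the groups.

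The remaining fatty acid genes varied in size. Acaca, which makes malonyl-CoA, was lower at -0.74 (SE 0.21), with 715 to 958 in WDF and 952 to 1763 in CDF. Fasn, the fatty acid synthase, was at 2765 to 5048 in WDF and 2013 to 6651 in CDF, and its log2 difference of -0.35 (SE 0.32) did not pass; it was -0.66 without CDF replicate 2 and -0.23 without CDF replicate 1. Elovl6, an elongase, was lower without overlap, at 2292 to 2845 against 2892 to 3488. Acsl3 read 588, 604, 438, 561 and 495 in WDF and 1053, 677, 877, 1187 and 1025 in CDF, also without overlap. Dgat1, which adds the last acyl chain to triglyceride, was higher at 0.77 (SE 0.29): WDF replicate 1, at 230, lay within the CDF range of 183 to 253, and the other 4 were at 352 to 495. Srebf1 was at -0.36 (SE 0.17, unadjusted p = 0.0504, limma), Mlxipl, which encodes the carbohydrate-responsive factor ChREBP, at 0.09 (SE 0.18), and Pnpla3, a lipase of lipid droplets, at -0.26 (SE 0.33).

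Genes of fatty acid oxidation and lipoproteins leaned the other way, by less. Of 32 oxidation, ketone body and PPARalpha target genes 20 had a higher mean in WDF (50.5% of all tested genes did), 4 at an unadjusted p under 0.05 (4.25% of all tested genes were higher at that level), and the median was 0.19. Acadvl, the first enzyme of long-chain beta-oxidation, read 3808, 5341, 5211, 4432 and 4120 in WDF and 3711, 3202, 3501, 2551 and 2679 in CDF. It was 1 of 3 members with all 5 WDF livers above all 5 CDF livers (1.02% of all tested genes), with Slc25a20, the carnitine carrier (0.29), and Acaa2, a thiolase (0.42, unadjusted p = 0.0578, limma). Acaa1b (0.57) was also under 0.05. The count under 0.05 was 8 without CDF replicate 1, and 2 without WDF replicate 1 or without WDF replicate 2, the library with lung transcripts. Over all genes tested, higher and lower together, 1908 of 14741 were under 0.05 without CDF replicate 1. Ppara itself was at 0.37 (SE 0.18), Cyp4a14 at 0.83 (SE 0.50) and Cpt1a, the entry step, at 0.10 (SE 0.29); none passed at either level.

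Among 18 lipoprotein genes the median was 0.25, and 14 had a higher mean in WDF (50.5% of all tested genes did). Of these, 4 had an unadjusted p under 0.05 (4.25% of all tested genes were higher at that level). That count was 7 without CDF replicate 1, 1 without CDF replicate 4 or WDF replicate 2, and 2 without CDF replicate 2, CDF replicate 5, WDF replicate 1 or WDF replicate 4. Over all genes tested, higher and lower together, it was 1908 of 14741 without CDF replicate 1, and 742 of 14742 without CDF replicate 4. Apoe, carried on remnant particles, was at 111389 to 133289 in WDF and 73548 to 101573 in CDF without overlap (log2 difference 0.39, SE 0.13, adjusted p = 0.498, limma). Lcat, which esterifies cholesterol in plasma, did not overlap either, at 2381 to 3179 against 2026 to 2370. Apoc3 (1.03, SE 0.47) and Lipc, the hepatic lipase (0.33, SE 0.15), were the other members under 0.05. WDF replicate 3 was highest for Apoc3, at 4581, and for Apoa4, at 474. Apoa4 had a log2 difference of 0.12 (SE 0.73), whose sign changed with the library left out. Pltp (-0.72) and Mttp (-0.34), which transfer lipid onto particles, were lower, with unadjusted p-values of 0.0524 and 0.0694 (limma).

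On lipid droplets, Abhd5 was lower in WDF, at 1527 to 2211 against 2589 to 3818. It was 1 of 2 members of that list with a lower mean, the median over 13 members being 0.17. The droplet coat genes Plin5 (0.80, SE 0.29) and Plin4 (0.90, SE 0.39) were higher, with CDF replicate 2 the highest liver for both, at 569 and 50.7.

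**Figure D3:**
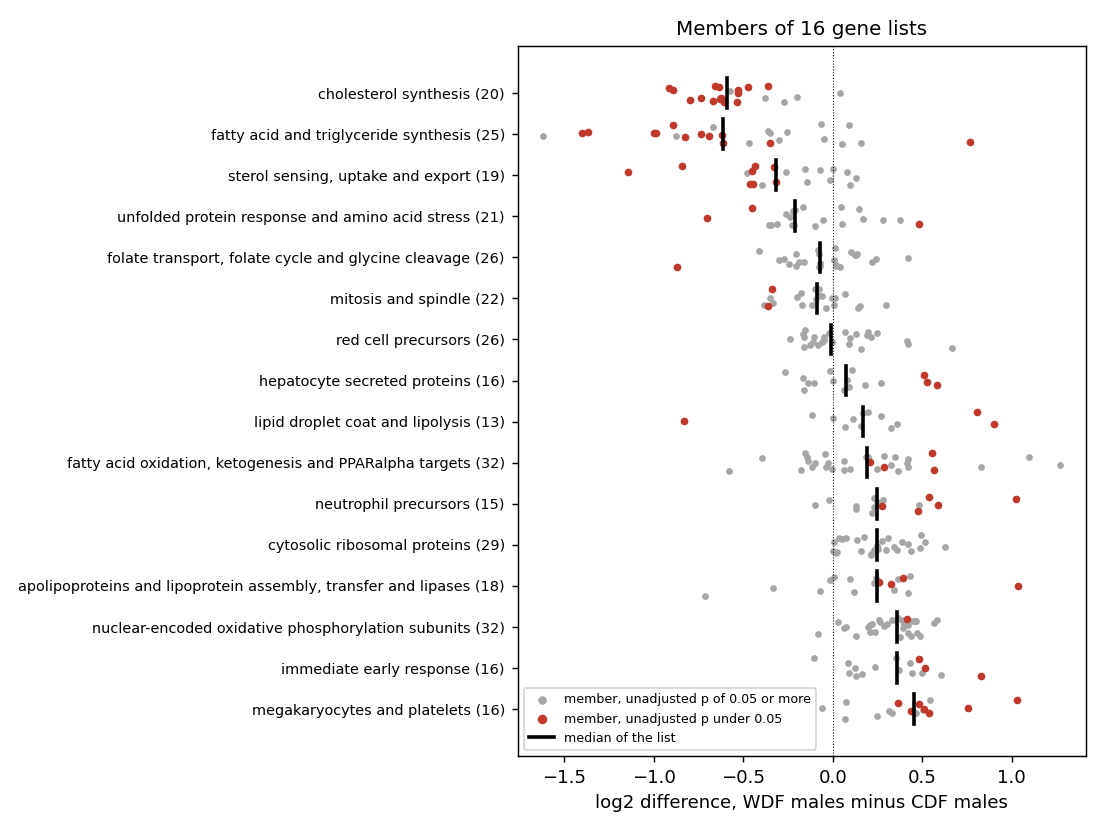
Each point is 1 tested member of a gene list at its log2 difference (WDF minus CDF males), red where limma's unadjusted p was under 0.05; the black bar is the list's median, and the number of tested members is in brackets. The medians run from -0.61 for fatty acid synthesis to 0.45 for the megakaryocyte list, beside 0.00 over all tested genes.

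Markers of blood-forming lineages differed by lineage. Megakaryocyte and platelet genes were higher in WDF for 15 of 16 members (50.5% of all tested genes were), with a median of 0.45. Of these, 7 had an unadjusted p under 0.05 (4.25% of all tested genes were higher at that level), but no member was free of overlap. Itga2b, the platelet integrin chain CD41, read 1143, 2522, 2245, 1544 and 2134 in WDF and 1762, 527, 1251, 642 and 811 in CDF. WDF replicate 1 lay inside the CDF range, and CDF replicate 1 above 2 of the WDF livers. The log2 difference was 1.03 (SE 0.45, unadjusted p = 0.0342, adjusted p = 0.583, limma). Gp5 (0.53), Treml1 (0.48), Gp9 (0.44), Pf4 (0.51) and Vwf (0.76), the last shared with endothelium, were the next named members. The count under 0.05 was 2 without CDF replicate 4, 3 without CDF replicate 2 or WDF replicate 5, and again 7 without WDF replicate 2. It was 11 with library weights. Over all genes tested, higher and lower together, 742 of 14742 were under 0.05 without CDF replicate 4, and 3738 of 14783 with library weights.

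Neutrophil precursor genes had a higher mean in WDF for 13 of 15 members (50.5% of all tested genes did), with a median of 0.25. Of these, 5 had an unadjusted p under 0.05 (4.25% of all tested genes were higher at that level). Retnlg, a resistin-like granule gene, was at 599, 898, 1160, 1231 and 1147 in WDF and at 480, 481, 572, 350 and 543 in CDF. All 5 WDF livers were above the CDF livers, replicate 1 narrowly. The log2 difference was 1.02 (SE 0.20, unadjusted p = 6.06e-05, adjusted p = 0.357, limma). Mmp8 (0.54), S100a9 (0.59) and Ngp (0.27) were also higher at an unadjusted p under 0.05, while Mpo, of earlier precursors, was at 0.22 (SE 0.16) and S100a8 at 0.28 (SE 0.14). That count was 2 without CDF replicate 2, CDF replicate 4, WDF replicate 3 or WDF replicate 4, and 3 without CDF replicate 1, CDF replicate 5 or WDF replicate 2. It was 9 with library weights. Over all genes tested, higher and lower together, 742 of 14742 were under 0.05 without CDF replicate 4. The same number was 1908 of 14741 without CDF replicate 1, and 3738 of 14783 with library weights.

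Red cell precursor genes showed no such lean, with 12 of 26 higher, 14 lower, a median of -0.01 and 0 at an unadjusted p under 0.05. Hepatocyte secreted proteins were split 10 to 6 with a median of 0.07.

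Acute phase and secreted proteins were mixed. C4b read 6796, 10830, 11486, 8453 and 8424 in WDF and 4790, 3612, 4620, 2004 and 3792 in CDF, without overlap (log2 difference 1.33, SE 0.31, adjusted p = 0.366, limma). Haptoglobin, Hp, was at 18205 to 27388 in WDF and 9226 to 19332 in CDF (0.75, SE 0.19). Of 15 acute phase genes 9 were higher on average, 4 of them at an unadjusted p under 0.05, including Itih4 (0.60), Serpina3n (0.99) and Orm1 (0.81). Of all tested genes 50.5% were higher, and 4.25% were higher at that level. Serpina3n and Orm1 belong to families of near-identical genes that may share reads. Ceruloplasmin, Cp, the copper-carrying plasma protein, was lower without overlap, at 4162 to 6412 in WDF and 6682 to 9043 in CDF (-0.60, SE 0.23). Igfbp2, which binds insulin-like growth factors, read 8359, 10163, 12706, 10741 and 18522 in WDF and 5228, 5823, 3208, 2820 and 3819 in CDF, with the 2 groups well apart (1.53, SE 0.42, unadjusted p = 0.00149, adjusted p = 0.428, limma). Igf2, the fetal growth factor, was at 0.38 (SE 0.14) and Igfbp1 at 0.21 (SE 0.44).

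Folate genes, of the pathway that uses the vitamin supplemented in both diets, leaned in neither direction: 12 of 26 were higher, 14 lower, and the median was -0.07. Only Aldh1l2, the mitochondrial enzyme that oxidizes formyl-folate, was under an unadjusted p of 0.05, at 37.8 to 96.6 in WDF and 65.6 to 179 in CDF (log2 difference -0.87, SE 0.30, adjusted p = 0.498, limma). Mthfd1 was at -0.16 (SE 0.11), Atic at -0.28 (SE 0.14) and Tyms, thymidylate synthase, at -0.07 (SE 0.18).

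Several large gene groups leaned higher, and how many members were under 0.05 depended on the fit. Of all tested genes 50.5% were higher. At an unadjusted p under 0.05, 4.25% were higher and 4.13% lower. Of 32 nuclear-encoded subunits of oxidative phosphorylation 31 were higher on average (median 0.36), but 1, Cox8a (0.41, SE 0.17), had an unadjusted p under 0.05. All 29 cytosolic ribosomal protein genes had a higher mean (median 0.25) and 0 were under 0.05. For both lists CDF replicate 1 lay with the WDF livers, and without it 16 of the 32 oxidative phosphorylation subunits were higher at an unadjusted p under 0.05 (3 without CDF replicate 2, and 0 without CDF replicate 4 or 5 or WDF replicate 2 or 3). Over all genes tested, higher and lower together, 1908 of 14741 were under 0.05 without CDF replicate 1, and 742 of 14742 without CDF replicate 4. The subunits under 0.05 were 25 of 32 with library weights and 16 of 32 in the fit of the 10 compared libraries alone. The ribosomal genes were 16 and 6 of 29. Beside these stand 3738 of 14783 and 2052 of 14129 of all genes tested in the same 2 fits, higher and lower together. For the ribosomal list WDF replicate 1 lay with the CDF livers. Of the mitochondrial genome's own transcripts 10 of 13 were higher, but their median was only 0.09. It ran from -0.09 to 0.36 with 1 library left out. Single libraries ranged widely around the mean of the 10, from -0.74 in WDF replicate 2 to 0.92 in WDF replicate 1 (median of the list). The higher members included mt-Co3, a cytochrome oxidase subunit, at 45601 to 66597 in WDF and 18894 to 43690 in CDF (0.95, SE 0.28), and mt-Nd3, of complex I (1.02, SE 0.38). Of 16 immediate early genes 15 had a higher mean (median 0.36), with Atf3 (0.48), Ier2 (0.52) and Fos (0.83) under 0.05. Unfolded protein response genes had a lower mean for 14 of 21 (median -0.21), with Dnajb9 (-0.70, SE 0.23) and Hspa5, the chaperone BiP (-0.45, SE 0.20), under an unadjusted p of 0.05. Atf3 (0.48), which is also a member of this list, was higher at that level.

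Ranked by unadjusted p, the first 12 genes on the higher side included Csta2, Rarres2, Fam47e, Chil1, Clec4d, Adtrp, Wdr86 and Nfib, with log2 differences from 0.58 to 1.56. Rarres2 read 752, 979, 872, 924 and 728 in WDF and 538, 557, 434, 365 and 496 in CDF, without overlap. Clec4d, a receptor of myeloid cells, had the widest difference at a low level, 33.8 to 122 against 10.6 to 38.6. The first 12 on the lower side included Sertm1, Letm1, Rdh11, Vcp-rs, Ssr1, Ccnb1-ps, Zfp606, Slc7a3 and Tmem268, from -2.23 to -0.47. Slc7a3, a carrier of cationic amino acids, was at 4.6 to 18.3 in WDF and 16.5 to 143 in CDF. Letm1, an ion exchanger of the inner mitochondrial membrane, read 295, 249, 311, 256 and 247 against 340, 476, 459, 449 and 378, without overlap. Ccnb1-ps is a copy of Ccnb1 (-0.35, SE 0.20), and its reads may be shared with that gene.

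The same western-minus-control contrast was set beside its 3 counterparts, which share no library with it. At the lower folic acid dose in males the cholesterol list had a median of -0.37, with 19 of 20 members lower (51.7% of all tested genes were), and the fatty acid list -0.50, with 24 of 25 lower. Without replicate 4 of CD, the male library that stands apart, these medians were -0.42 and -0.64, with 20 of 20 and 25 of 25 lower. Male CD replicate 5, with Sftpc at 4012, was kept throughout. In females the medians were -0.16 and -0.30 at the higher dose and -0.15 and -0.34 at the lower dose. Female values come from a fit of 38 libraries, which drops 1 CDF and 1 CD female with albumin of 5278 and 7708. It keeps CDF female 4, with Hba-a1 at 1515652 and Sftpc at 24797, and CD female 5, with Sftpc at 30176. Without these as well (36 libraries, chosen after seeing the data) the medians for cholesterol and fatty acid synthesis were -0.20 and -0.35 at the higher dose and -0.28 and -0.49 at the lower. The neutrophil list was at 0.25 here, -0.26 in low-dose males, -0.41 in high-dose females and 0.18 in low-dose females. The subunits of oxidative phosphorylation were at 0.36, -0.16, -0.42 and 0.38 in the same order. Without CD replicate 4 the second of these values became -0.13 for the neutrophil list and 0.01 for oxidative phosphorylation. With 36 libraries the high-dose female values became -0.06 for both lists, and the low-dose female values 0.09 and 0.53.

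**Figure D4:**
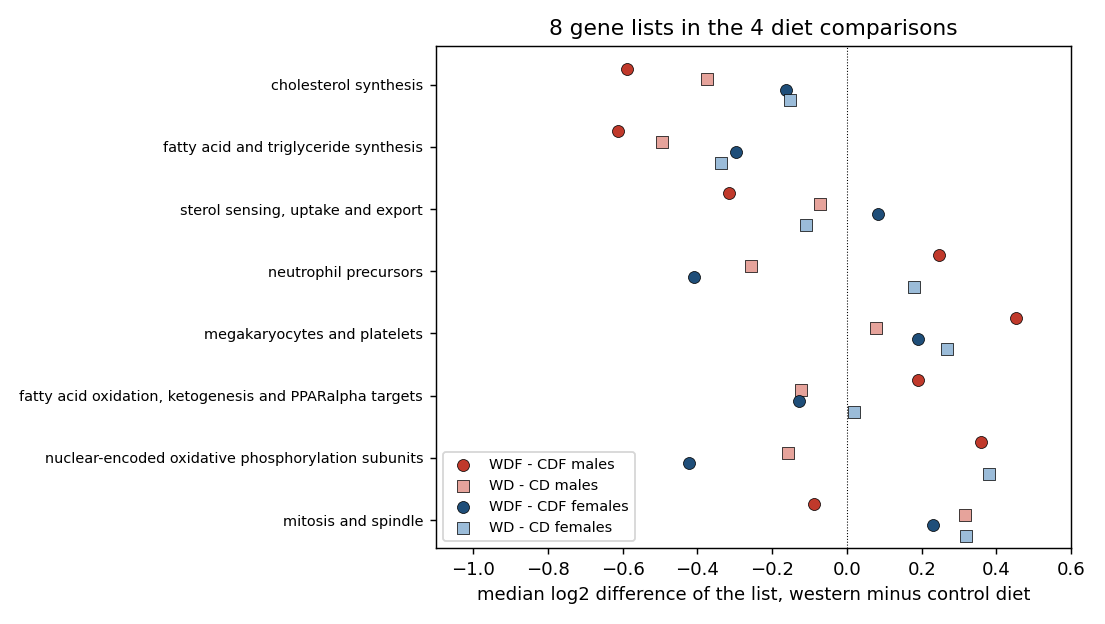
Each marker is the median log2 difference of a gene list between western and control diet; circles are the higher and squares the lower folic acid dose, red males and blue females. All 4 markers lie below 0 for cholesterol and for fatty acid synthesis, and they lie on both sides of 0 for the neutrophil and oxidative phosphorylation lists, where the markers below 0 are -0.13, 0.01 or -0.06 without the libraries that stand apart.

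Over all 14783 genes, 31.5% had the same sign of difference as in low-dose males (Pearson's r across genes -0.30), 34.1% as in high-dose females (-0.27) and 69.2% as in low-dose females (0.35). The first of these rested on CD replicate 4: without it 46.8% had the same sign, with r at -0.04. The second rested on the 2 further female libraries: with 36 libraries 44.6% had the same sign as in high-dose females (r 0.01) and 72.2% as in low-dose females (0.47). These are descriptions over genes measured in the same libraries, and genes are not independent replicates.

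Tests of the differences themselves gave no gene past the threshold. For the effect at the higher minus the lower dose in males, 0% passed and the smallest adjusted p was 0.179 (limma). An unadjusted p under 0.05 was found for 2127 genes (14.4%), or for 1519 of 14724 without WDF replicate 2. With library weights 469 genes passed. Of the 15 neutrophil genes 7 were under an unadjusted p of 0.05 for this difference, as were 9 of 22 mitosis genes, whose median was -0.09 here and 0.32 in low-dose males. Without CD replicate 4 these counts were 6 of 15 and 13 of 22, beside 10.2% of all genes. Of the cholesterol enzymes 2 of 20 were under 0.05 with all libraries, and of the fatty acid genes 2 of 25. The genes with the smallest p were Csta2, Retnlg, Fetub, a liver protease inhibitor, and Chil1 on the higher side, and Letm1, Dusp9, Phf19 and Stt3a on the lower. Fetub had a log2 difference of 0.58 at the higher dose and -0.77 at the lower (difference 1.35, unadjusted p = 7.39e-05, limma). Dusp9, a phosphatase of MAP kinases, was at -0.67 and 0.97 (difference -1.64).

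Between males and females at the higher dose, 0% passed and the smallest adjusted p was 0.382 (limma). An unadjusted p under 0.05 was found for 1917 of 15377 genes (12.5%), or for 1073 of 15326 without WDF replicate 2. Of the oxidative phosphorylation subunits 12 of 32 were under 0.05 for this difference, of neutrophil genes 8 of 15 and of cholesterol enzymes 5 of 20. With 36 libraries these counts were 0 of 32, 1 of 15 and 2 of 20, beside 2.91% of all 15230 genes, and 0 genes passed. Sqle was at -0.66 in males and 0.13 in females (difference -0.79, unadjusted p = 0.00496), and Lss at -0.91 and 0.35 (difference -1.27). With 36 libraries the differences were -0.66 (unadjusted p = 0.00862) for Sqle and -0.79 (unadjusted p = 0.0885, limma) for Lss, which was then at -0.13 in females. With 38 libraries the genes with the smallest p included Bok, Wdr86 and Alyref2 on the higher side and Ago3, Nup155, Eya3 and Cbfa2t2 on the lower. Ago3, an Argonaute protein of small RNA silencing, was at -0.56 in males and 1.32 in females (difference -1.88).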

How the data were processed

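RNA of 40 livers was sequenced as paired ends of 43 nt from directional polyA libraries, per the labels' protocols. Tools named are Trimmomatic 0.39, STAR 2.7.3a, Salmon 1.3.0 and DESeq2 1.24 with build mm10, per the submitters' processing notes, which give no role or order. The deposited table is a signal of read counts that the authors had already divided by size factors: 91.6% of its values are not whole. Only 44.3 to 68.4% of low values in the 10 libraries were whole multiples of the smallest step (tolerance 0.1 of a step), so reads were not recovered, count models were not used, and precision rests on the spread between libraries.

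Genes reaching 10 or more in 5 or more of the 20 male libraries were tested as log2(value + 1) with limma 3.58.1 (R 4.3.3; mean-variance trend, robust moderation, 1 mean per group); the pseudocount makes differences of low genes too small. P-values were adjusted by Benjamini-Hochberg over all genes tested, with a threshold of 0.05. All 4 male groups share 1 estimate of the spread; comparisons with females used 38 libraries, or 36 without 2 more that stand apart. Single values were compared by exact permutation, whose smallest p for 5 against 5 is 0.00794. The procedure was tested on simulated data, in which genes varied independently and no library stood apart. That simulation therefore does not bear on libraries that stand apart.

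Named genes are the 12 with the smallest p on each side with a mean of at least 20 and not predicted genes, key members of the lists and up to 4 members of each with the smallest p, and the 4 with the smallest p on each side for both differences of effects; Fads2, Pbxip1, Cul9, Maoa, Igfbp2, Ebp, Nsdhl, Sc5d, Mvd and Fdft1 were added after their values were seen. Some genes that this rule names count in the lists but are not reported here. The comparison and the gene lists were chosen with earlier results of these data known. Column names match sample titles, except 1 female CDF column without its sex letter, assigned as the remaining title. The authors' tables of folic acid comparisons were not used here. No male library was counted as a duplicate, the closest pair correlating at 0.978. Gene symbols came from the file.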

Additional observations from a re-analysis of the deposited data

Results flagged for a closer look

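In groups of 5, the lowest or highest library was set against its nearest neighbour; a library was listed when that gap took an unusually large share of the group's range, by Dixon's test. For 126 genes, each checked in both groups, 19 values were listed, and chance alone lists about 1 in 20 groups. WDF replicate 2, the library with lung transcripts, was highest of its group for Cyp51 (4876), Fads2 (3985) and Thrsp (106). CDF replicate 2 was lowest of its group for Scd1 (1613, next 8556). WDF replicate 1 was highest for Mttp (2810) and mt-Nd3 (13168). WDF replicate 3 was highest for Apoa4 (474) and Mpo (4395). WDF replicate 4 was highest for Fos (84.7), Pck1 (341) and Stt3a (3092). WDF replicate 5 was highest for Gp9 (302) and Orm1 (78.8) and lowest for Atic (641). Among CDF livers, replicate 1 was highest for Mpo (3855), replicate 3 was highest for Ngp (7752) and lowest for Mlxipl (255), and replicate 4 was highest for Cbfa2t2 (320) and lowest for S100a8 (5957).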

How the results depend on the processing

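The 0 genes past an adjusted p of 0.05 for WDF against CDF males became 333 with library weights, 13 without CD replicate 4 (chosen after seeing the data) and 0 to 2 when 1 compared library was left out; the other alternatives, limma-voom among them, gave 0. The difference between doses went from 0 to 469 genes with library weights. The 312 genes without overlap, always counted over the 14783 genes tested with all libraries, became 360 to 1200 when 1 library was left out, 1200 without CDF replicate 1, 995 without WDF replicate 1 and 619 without CDF replicate 2; fewer samples alone make overlap rarer. The median of the iron handling list, -0.13, was -0.05 with a filter of 50 and -0.20 to -0.04 with 1 library left out, and that of blood stem and progenitor cells, -0.09, was -0.01 with library weights and -0.11 to 0.00 with 1 left out. Of the genes named, 3 changed sign: with 1 library left out Mlxipl ran from -0.01 to 0.19, Cpt1a from -0.02 to 0.20 and Apoa4 from -0.37 to 0.56. The cause was not tested. The list of mast cells and basophils had too few genes under the filter of 50.

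Replicate numbers are shared by the groups but do not pair the samples: deviations of same-numbered samples correlated at -0.28 to 0.12. With the replicate number as a block, 0 genes passed and 1058 had an unadjusted p under 0.05, against 1240 without it; the sex difference also gave 0 genes with and without the block. Depth is only estimated, and how small a difference could be detected in genes near a value of 10 was not tested.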

Other observations

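Glucose and drug metabolism genes held some of the wider differences that the account above does not describe. Pck1, the gateway enzyme of gluconeogenesis, stood at 228, 198, 211, 341 and 185 in WDF and at 116, 27, 57.4, 206 and 30.2 in CDF, and only CDF replicate 4 reached the WDF range. Its log2 difference was 1.79 with an SE of 0.91 (adjusted p = 0.594, limma), so it did not pass. G6pc, which releases glucose, was at 0.63 (SE 0.56). Cyp2e1, a P450 enzyme that appears around birth, was at 706 to 1707 in WDF and 206 to 560 in CDF without overlap (1.59, SE 0.50). Aox1, an aldehyde oxidase, was lower without overlap, at 5.46 to 22.7 against 30.9 to 55.9 (-1.40, SE 0.38). Cyp27a1, of bile acid synthesis, was at 0.52 (SE 0.25).

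Some members of the 312 genes without overlap were picked after their values were seen. On the lower side were Ssr1, a subunit beside the translocon of the endoplasmic reticulum (2039 to 2862 in WDF, 2978 to 4968 in CDF), Stt3a, a subunit of the enzyme that adds sugar chains to proteins (2327 to 3092 against 3220 to 4638), Alg2, a mannosyltransferase (239 to 253 against 292 to 485), and Dnajc10, a reductase of the endoplasmic reticulum (490 to 605 against 606 to 963). On the higher side were Pon1, a plasma esterase (839 to 1218 against 292 to 651), Klf9, a transcription factor (765 to 968 against 509 to 674), and Tfr2, the second transferrin receptor (2153 to 2545 against 1510 to 2087). In low-dose males Ssr1 was at 0.34 and Stt3a at 0.40, the other direction.

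Markers of other tissues than lung also varied between the 10 livers. The 12 pancreas genes summed to 846 in CDF replicate 3 and to 160 to 413 in the others. The 12 heart genes summed to 473 in WDF replicate 2 and to 82.3 to 329 in the others, and the 14 skeletal muscle genes to 516 and to 117 to 325. The 10 mesothelium genes summed to 4848 to 8186 in WDF and 4670 to 8858 in CDF.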
